A study of Drosophila melanogaster with 3 samples.

Results

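Mirror peaks at one-directional promoters were the ChIP-seq peaks whose summit, the base of highest signal, lay within 500 bp of a protein-coding transcription start site (TSS) while every protein-coding TSS within that distance was on 1 strand. Of 6201 peaks in the list that passed the irreproducible discovery rate (IDR) procedure, 2194 met this rule (35.4%). Another 594 peaks (9.58%) had TSSs of both strands within 500 bp and are called two-strand promoter peaks; in 582 of them a minus-strand TSS lay to the left of a plus-strand TSS, so that the genes pointed away from each other. The remaining 3413 peaks (55.0%) had no protein-coding TSS within 500 bp. The study mapped Mirror by chromatin immunoprecipitation in whole Drosophila melanogaster embryos of mixed sex, aged 4 to 20 h. All 3 samples came from the same transgenic line, mirr-GFP, which stably expresses Mirror with GFP at its C-terminal end, and they carry biological replicate numbers 1, 2 and 3. There was 1 group, with no untagged or untreated embryos among the samples, and the promoter driving the transgene is not given in the labels. The labels disagree on 2 points: the descriptions speak of an input control while titles and antibody fields speak of transcription factor ChIP, and the age field is garbled, so the age was read from the sample source. Whole embryos mix all tissues, and a peak cannot be assigned to a cell type.

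Mirror is a homeodomain protein of the Iroquois group, a branch of the TALE homeodomain class, known for patterning the dorsal eye, the ovarian follicle cells and the body wall. In the compact Drosophila genome many genes start next to a gene of the opposite strand, while others start alone. The isolated starts are known to include many developmental genes, whose core promoters often carry an Initiator at the start, a downstream promoter element or GAGA repeats. Head-to-head starts are known to belong mostly to housekeeping genes, with the DNA replication-related element (DRE), Motif 1, Motif 6, Motif 7 and the E-box motif as their usual core sequences. Cytosolic ribosomal protein genes have a core promoter type of their own.

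The sequences below show what lay under strong members, for the 4 searched sequences that the results turn on and for members without any searched sequence. Each pair is the 2 strongest members on 2L, 3L, 3R, 4 and X that fit the description. They come from the RefSeq release 6 genome, whose coordinates are those of dm6, and run 5′ to 3′ along the strand of the gene. Each is the part outside annotated untranslated regions of the 201 bases about a summit, or, where the searched sequence itself lay in an untranslated region, 30 bases around it. Capitals mark the searched sequence. The first pair holds the DRE, TATCGATA, at eEF1gamma (chr3R:29220067-29220171, plus strand), a translation elongation factor gene, and at Hip1 (chr3L:12773540-12773569, minus strand).
eEF1gamma: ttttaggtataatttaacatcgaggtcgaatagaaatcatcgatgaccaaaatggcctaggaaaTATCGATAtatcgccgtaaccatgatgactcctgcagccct
Hip1: attaactttTATCGATAaaggaaaacaaca
The second pair holds Motif 1, GGTCACACT, at RpL27A (chr2L:4458330-4458359, minus strand), which encodes a ribosomal protein, and at Mer (chrX:19693501-19693526, minus strand), which encodes the Merlin tumour suppressor.
RpL27A: cgccgccgggcGGTCACACTgctacaaccg
Mer: ctgcatctaacggctGGTCACACTgt
The third pair holds the Iroquois palindrome, ACANNTGT, at Gapdh2 (chrX:15867891-15868091, plus strand), a glycolytic enzyme gene, and at CG6966 (chr3R:15095760-15095956, minus strand).
Gapdh2: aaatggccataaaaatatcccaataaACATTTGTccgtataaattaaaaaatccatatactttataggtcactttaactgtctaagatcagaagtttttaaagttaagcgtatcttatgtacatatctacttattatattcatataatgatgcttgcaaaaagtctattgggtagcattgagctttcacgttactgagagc
CG6966: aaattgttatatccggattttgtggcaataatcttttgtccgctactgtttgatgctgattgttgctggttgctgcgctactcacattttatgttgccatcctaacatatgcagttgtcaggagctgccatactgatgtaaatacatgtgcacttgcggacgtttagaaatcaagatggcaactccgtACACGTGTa
The fourth pair holds the GATA sequence, GATAAG on either strand, at Cpr (chr2L:6343116-6343316, plus strand), which encodes NADPH-cytochrome P450 reductase, and at Galphaf (chr3L:16668045-16668245, minus strand), a G protein alpha subunit gene.
Cpr: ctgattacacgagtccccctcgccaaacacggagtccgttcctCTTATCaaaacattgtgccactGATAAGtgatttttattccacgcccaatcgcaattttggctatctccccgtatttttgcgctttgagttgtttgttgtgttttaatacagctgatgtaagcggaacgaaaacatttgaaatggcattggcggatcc
Galphaf: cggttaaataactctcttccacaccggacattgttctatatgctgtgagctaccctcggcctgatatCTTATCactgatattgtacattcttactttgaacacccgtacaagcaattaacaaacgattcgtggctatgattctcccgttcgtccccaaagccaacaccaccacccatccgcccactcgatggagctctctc
The last pair held none of the 17 searched sequences within 100 bp of the summit, at CG14100 (chr3L:19590525-19590716, minus strand) and at mirr itself (chr3L:12693497-12693638, plus strand).
CG14100: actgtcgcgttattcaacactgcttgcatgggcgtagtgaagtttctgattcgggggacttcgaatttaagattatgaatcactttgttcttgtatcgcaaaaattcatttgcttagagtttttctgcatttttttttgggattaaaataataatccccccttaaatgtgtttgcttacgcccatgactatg
mirr: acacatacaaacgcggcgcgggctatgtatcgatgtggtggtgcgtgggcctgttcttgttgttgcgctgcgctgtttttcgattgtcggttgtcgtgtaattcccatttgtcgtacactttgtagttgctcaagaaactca

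Each peak carries a signal from the authors' caller, with no stated scale, so peaks were ranked by it within a list. The replicate rank or signal given for a member is that of the strongest replicate region overlapping its interval by at least 1 bp. It need not belong to the same summit, and members with the same interval share it. Among the printed members, eEF1gamma had rank 86 in replicate 1, rank 360 in replicate 2 and rank 83 in replicate 3. Hip1, with signal 874.8 in the IDR list, had rank 155 in replicate 2 and rank 358 in replicate 3, and no region of the replicate 1 list overlapped it. RpL27A ranked 671, 682 and 864 in replicates 1, 2 and 3, and Mer ranked 637, 2197 and 1365. Gapdh2 ranked 4, 17 and 26, and CG6966 ranked 161, 275 and 110. Cpr ranked 43, 8 and 33, whereas Galphaf stood at 97 and 214 in replicates 1 and 3 and at 5 in replicate 2. CG14100 ranked 3, 6 and 2, and mirr ranked 10, 1 and 4. The printed members were picked by their signal in the IDR list, so high ranks follow in part from that choice. One-directional promoter peaks without any searched sequence were not stronger as a set. Their median rank lay at 53.8%, 53.1% and 51.3% of the ranked one-directional peaks in replicates 1, 2 and 3.

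To give the spread between replicates, the same rule was applied to the 6201 strongest regions of each replicate list. One-directional promoters held 38.7%, 35.9% and 30.4% of these in replicates 1, 2 and 3 (35.0% ± 4.20, SD, n = 3). They held 18.8% of the 22666 regions of the pooled list that overlapped no IDR peak, which are called relaxed-only regions here and serve as background. Two-strand promoters held 12.3%, 6.52% and 8.35% in replicates 1, 2 and 3 (9.06% ± 2.97), against 3.40% of relaxed-only regions. Replicate 2 had the smallest two-strand share of the 3, and replicate 3 the smallest one-directional share. Sequencing depth was unknown. Comparisons between classes of peaks used an exact two-sided sign-flip permutation test over the 3 replicates. With 3 replicates this test cannot give a p below 0.25, and so cannot pass 0.05. For each comparison the replicate values, their mean and SD, or the number of replicates with the same sign are therefore given. A p is printed only for the first comparison.

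Seen from the promoters, 1847 of 13945 protein-coding genes (13.2%) had a member within 500 bp of a TSS. Of 14770 one-directional TSSs, meaning those with no protein-coding TSS of the other strand within 500 bp, 2546 (17.2%) had a summit within 500 bp. Of 4483 two-strand TSSs, 1388 (31.0%) had one. Over the replicates these shares averaged 17.0% ± 1.84 for one-directional TSSs and 29.5% ± 8.54 for two-strand TSSs (SD, n = 3). It was lower for one-directional TSSs in every replicate, by 20.4, 5.58 and 11.6 percentage points in replicates 1, 2 and 3 (mean difference -12.5, SD 7.47, exact permutation p = 0.25). A two-strand TSS can be counted through the summit of its neighbour, which raises its share by construction. Thus one-directional promoters supplied most of the promoter peaks while each such TSS was less often near a summit than a two-strand TSS in all 3 replicates.

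By chromosome arm, a summit lay within 500 bp of 16.9% of one-directional TSSs on 2L, 19.2% on 2R, 17.6% on 3L, 17.8% on 3R and 14.9% on X. Apart from chromosome 4, X had the lowest share in each replicate, with 17.3%, 14.9% and 12.3% in replicates 1, 2 and 3, though in replicate 1 it was close to 2L, which had 17.95%, 17.1% and 15.5%. Chromosome 4, which is small and largely heterochromatic, had 2.44% of 123 TSSs. Its 3 members lay 92 bp upstream of ci, the transcription factor of the Hedgehog pathway, 40 bp upstream of RpS3A, a ribosomal protein gene, and 111 bp upstream of zfh2, a zinc-finger homeodomain gene. The replicate lists had summits at 6.50%, 4.07% and 3.25% of the TSSs on chromosome 4, each below the lowest value of any other arm.

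Most members marked 1 start of 1 gene. Of the 2194, 1774 had 1 protein-coding TSS within 500 bp, 420 had 2 or more and 46 had TSSs of 2 or more genes of the same strand. An opposite-strand start was not always far away: 307 members (14.0%) had an opposite protein-coding TSS at 501 to 1000 bp, and 91 (4.15%) had an opposite-strand TSS of a noncoding RNA within 500 bp. Of the 1847 genes, 1528 had 1 member, 257 had 2, 49 had 3 and 13 had more. The most were at ps (pasilla), an RNA-binding splicing factor gene, with 6, and at cnc, a bZIP transcription factor gene, with 5. The members at ps ranged in signal from 226.4 to 596.5, and those at cnc from 270.9 to 518.4, so no summit at either gene was among the 25 strongest members. Both genes use several starts far apart, and each summit was placed by its own nearest TSS. Signal over all members ran from 190.7 to 4323, with a median of 297.6, and widths ran from 99 to 1599 bp with a median of 396 bp. The rule on distance left CG34451 (500 bp upstream, signal 597.0), kay (499 bp upstream, 230.9) and CG5084 (498 bp upstream, 533.8) just inside, and the peaks nearest to prage (501 bp upstream, 506.8), amn (501 bp downstream, 238.2) and fwd (503 bp downstream, 209.7) just outside.

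Members lay upstream of the TSS more often than downstream. Of the 2194, 64.1% were upstream and 35.7% downstream of the nearest TSS, the others being on the TSS base itself. The downstream share was 36.3%, 38.8% and 33.8% in replicates 1, 2 and 3 (36.3% ± 2.52, SD, n = 3), against 43.1% of relaxed-only summits at one-directional promoters. The median signed distance, negative for upstream, was -46.5 bp in the IDR list, -48 bp in replicate 1, -36 bp in replicate 2 and -61 bp in replicate 3, against -22 bp for relaxed-only summits. The difference from relaxed-only summits came from the flanks rather than from the start itself. Within 50 bp of the TSS lay 28.5% of members and 26.8% of relaxed-only summits. From 51 to 250 bp upstream lay 34.7% of members (35.2% ± 1.29 over replicates) and 27.9% of relaxed-only summits. From 51 to 250 bp downstream lay 15.4% of members (16.2% ± 1.11) and 19.3% of relaxed-only summits. All 3 replicates were on the same side of the relaxed-only value for both flanks. By annotation, 713 of 1407 upstream members lay outside genes, 550 in introns, 112 in a 5′ UTR, 25 in a 3′ UTR and 7 in coding exons. Of 783 downstream members, 601 lay in a 5′ UTR, 151 in introns, 30 in coding exons and 1 in a 3′ UTR. The plot of summit position shows the upstream shoulder of the IDR and replicate lists, where the relaxed-only line is lower.

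**Figure D1:**
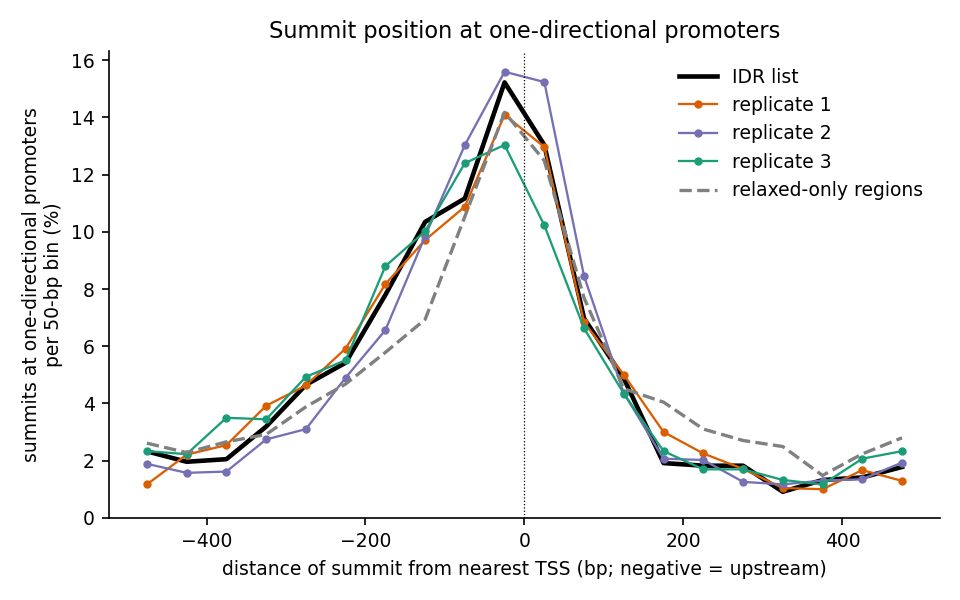
Summits at one-directional promoters per 50-bp bin, in percent of each list's own such summits, against the distance from the nearest TSS in bp (negative is upstream). The black line is the IDR list (2194 summits), the coloured lines are the strongest 6201 regions of each replicate and the dashed grey line is the relaxed-only regions; 15.2% of members fell in the bin just upstream of the TSS and 13.0% in the bin just downstream.

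Position changed with signal. Members were split by signal into 4 groups of about equal size. In the strongest group (549 peaks, signal 424.0 to 4323) the median summit was at -104 bp, and in the weakest group (548 peaks, signal 190.7 to 231.7) at -22 bp. The share downstream was 26.0% in the strongest group and 42.5% in the weakest, and the share 51 to 250 bp upstream was 43.7% and 27.2%. In the groups between them the median was -49 bp and -30.5 bp. The strongest group minus the weakest differed in median position by -85 bp in replicate 1, -33.5 bp in replicate 2 and -72 bp in replicate 3 (mean -63.5, SD 26.8). The share downstream differed by -15.4, -9.05 and -18.1 percentage points in replicates 1, 2 and 3 (mean -14.2, SD 4.64). Thus the stronger members lay farther upstream in all 3 replicates, and the shift was smallest in replicate 2. GC content was slightly lower in the strongest group, with a median of 43.3%, than in the weakest, with 45.3%; the part of base composition in these differences was not tested.

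**Figure D2:**
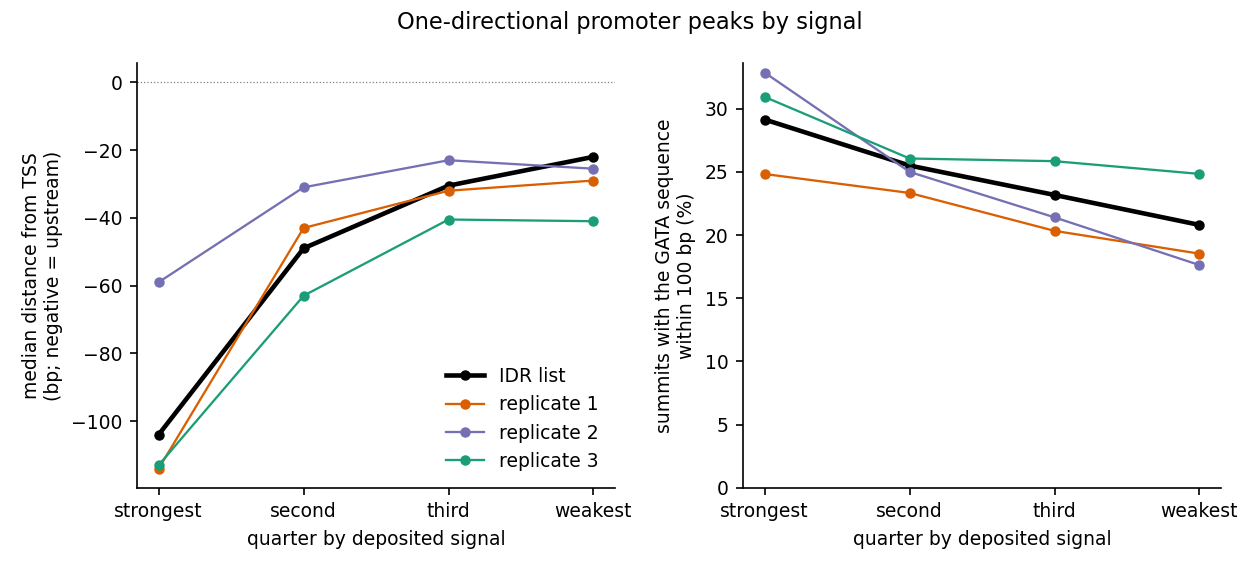
One-directional promoter peaks split into 4 groups by deposited signal, strongest to weakest. The left panel gives the median distance of the summit from the nearest TSS in bp, from -104 bp in the strongest to -22 bp in the weakest group of the IDR list, and the right panel the percentage of summits with the GATA sequence within 100 bp, from 29.1% to 20.8%; black is the IDR list and colours are the single replicates.

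The 25 strongest members are part of the strongest group, so their placement is no independent result. Of these 25, 24 lay upstream of the nearest TSS, 21 by more than 50 bp, with a median of -124 bp. All 25 overlapped the strongest 1000 regions of every replicate. They were picked by their signal in the list of all replicates together, which favours high ranks in each. The strongest lay 37 bp upstream of Ugalt, a UDP-galactose transporter gene, with a signal of 1685.6 in replicate 1, 805.2 in replicate 2 and 1880.3 in replicate 3. CG14100 followed with 1557.0, 651.1 and 2146.8, and the mirr promoter, 42 bp upstream of the TSS, with 1121.5, 979.3 and 1534.6 in replicates 1, 2 and 3. At mirr the tagged transgene carries the same gene, but the labels do not say whether it includes this promoter region. If it does, the parts of its copy and of the native locus cannot be told apart in these lists. The signal scale of a replicate is its own, so these values show order within a replicate and no difference between replicates.

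Several of these genes serve basic cell functions. eIF6, a ribosome biogenesis factor gene, had its summit 102 bp upstream of the TSS with ranks 16, 22 and 9 in replicates 1, 2 and 3. Hsp83, the Hsp90 chaperone gene, had it 111 bp upstream with ranks 15, 11 and 82. mRpL41, of the mitochondrial ribosome, had it 124 bp upstream with ranks 31, 170 and 18. Alg3, which encodes a mannosyltransferase of N-glycan synthesis, had it 69 bp upstream with ranks 44, 123 and 23. TRAM and yps, a Y-box RNA-binding protein gene, had it 94 and 23 bp upstream. Others encode regulators. ph-p, a Polycomb group gene, had its summit 483 bp upstream, in an interval with ranks 18, 63 and 12. A weaker member in the same interval, 463 bp downstream of a ph-p TSS, carries the same ranks. Atf3, a bZIP transcription factor gene, ranked 21 in replicate 1 and 27 in replicate 3 but 863 in replicate 2, the widest gap of the 25. Sox14, a Sox transcription factor gene, ranked 32, 207 and 39 at 264 bp upstream, and px, a wing vein gene, ranked 22, 68 and 34 at 203 bp upstream. The remaining genes were CG1888, Ptpmeg2 (a tyrosine phosphatase), fok, CG1635, amon (a proprotein convertase), Hpf1 (a cofactor of poly-ADP-ribosylation), CG18549, CG7841 and CG8195, besides Gapdh2, Cpr and Galphaf. CG8195 was the 1 member of the 25 downstream, by 431 bp. GATA was within 100 bp of 8 of these 25 summits, the Iroquois palindrome of 3, the DRE of 2, and none of the searched sequences of 4. Over all members the shares were 24.7%, 11.9%, 3.24% and 17.0%, in the same order. The counts for the Iroquois palindrome and for none were thus near the level of all members.

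The members recurred in the replicates, but not evenly. The strongest 6201 regions of replicates 1, 2 and 3 overlapped 87.6%, 79.3% and 76.2% of members by at least 1 bp (81.0% ± 5.87, SD, n = 3), and 1221 members (55.7%) were overlapped in all 3. Two-strand promoter peaks were overlapped in 93.8%, 57.1% and 75.9%, and 43.3% in all 3. The 3413 peaks away from promoters, with no protein-coding TSS within 500 bp, were overlapped in 77.0%, 80.3% and 88.8% (82.0% ± 6.10). Of these, 58.7% were overlapped in all 3. On average the members were thus near the level of peaks away from promoters, with the order of the replicates reversed. The one-directional share was lower than the two-strand share in replicate 1, higher in replicate 2 and differed by less than 1 percentage point in replicate 3, so its sign rests on replicate 2: without that replicate the mean difference was -2.97 percentage points. The IDR list was made from these same replicates and is not independent of them. In the whole relaxed lists of 30000 regions, 172 members (7.84%) lacked an overlapping region in at least 1 replicate. They were 26 in replicate 1, 57 in replicate 2 and 100 in replicate 3. Overlapped in all 3 whole lists were 92.2% of members, 86.7% of two-strand promoter peaks and 96.1% of peaks away from promoters. The largest gaps between ranks were at VhaSFD, a vacuolar ATPase subunit gene (3653, 2003 and 29617 in replicates 1, 2 and 3), CG42806 (3104, 2043 and 29151), CG4860 (2306, 28948 and 3904), prtp (926, 7670 and 27136) and CG4199 (3744, 27904 and 2536). In each case 1 replicate stood far from the others, replicate 3 for VhaSFD, CG42806 and prtp and replicate 2 for CG4860 and CG4199.

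By signal rank, one-directional and two-strand promoter peaks did not separate. The median rank was 3059, 2975 and 2988 for one-directional peaks and 2904, 3279.5 and 2879.5 for two-strand peaks in replicates 1, 2 and 3. Rank 1 is the strongest, so one-directional peaks were the weaker class in replicates 1 and 3 and the stronger in replicate 2. Their median distance from the nearest TSS, without sign, was 110 bp against 55 bp for two-strand peaks, and 113 ± 16.7 bp against 57.3 ± 5.51 bp over replicates. More TSSs within the window shorten the distance to the nearest, so part of this difference follows from the definition.

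The sequences under the summits differed between one-directional and two-strand promoter peaks. Within 100 bp of the summit, the DRE was found at 3.24% of one-directional peaks and 12.3% of two-strand peaks. Motif 1 was at 2.23% and 5.89%, Motif 6 (GGTATTTT) at 2.14% and 4.71%, Motif 7 (CATCNCTA) at 3.97% and 9.43%, and the E-box motif (CAGCTG) at 13.1% and 20.9%. The difference had the same sign in 3 of 3 replicates for each of these 5, for example -7.76 ± 1.54 percentage points for the DRE (SD, n = 3). In the other direction, the GAGA repeat, spelled GAGAGAG, was at 10.03% of one-directional peaks and 2.19% of two-strand peaks, CA repeats, spelled CACACACA, at 10.03% and 3.37%, GATA at 24.7% and 16.5%, and the Initiator (TCAGT, on the strand of the gene) at 27.5% and 19.2%. Each of these 4 was higher at one-directional peaks in 3 of 3 replicates, GAGA by 7.70 ± 0.70 percentage points and GATA by 8.36 ± 3.03. The Iroquois palindrome was at 11.9% of one-directional peaks and 12.1% of two-strand peaks. Its difference of -0.62 ± 0.67 percentage points was smaller than the spread between replicates, and its sign changed with the TSS window and the search window.

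Of the other searched sequences, the TATA box (TATAAA) was at 18.1% of one-directional and 28.3% of two-strand peaks, the homeodomain core TAATTA at 9.71% and 17.0%, and the TALE sequence TGACAG at 5.38% and 10.8%, each lower at one-directional peaks in 3 of 3 replicates. The palindrome ACGNNCGT was at 3.51% and 2.19%, and the downstream promoter element (CGGACGT, on the strand of the gene) at 1.73% and 0.842%, both higher at one-directional peaks in 3 of 3 replicates. The palindrome GTANNTAC was at 5.83% and 4.71%, higher in 2 of 3 replicates by a mean of 1.29 ± 2.25 percentage points, which is within the spread. The Zelda sequence CAGGTAG was at 1.00% and 1.18% in the IDR list but higher at one-directional peaks in 3 of 3 replicates, by 0.23 ± 0.07 percentage points. Sequences were searched on both strands unless said otherwise. Median GC content was 44.8% at one-directional and 38.8% at two-strand peaks, which bears on sequences made of A and T, and its part in these differences was not tested. Overlaps within members were few. The E-box motif and the Iroquois palindrome overlapped in 44 members, GATA and the Initiator in 24, ACGNNCGT and the downstream promoter element in 15, the DRE and GATA in 13, the Iroquois palindrome and GTANNTAC in 13, and each other pair in at most 10. In all, 229 members (10.4%) held the DRE, Motif 1, Motif 6 or Motif 7, and 373 (17.0%) held none of the 17 sequences.

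**Figure D3:**
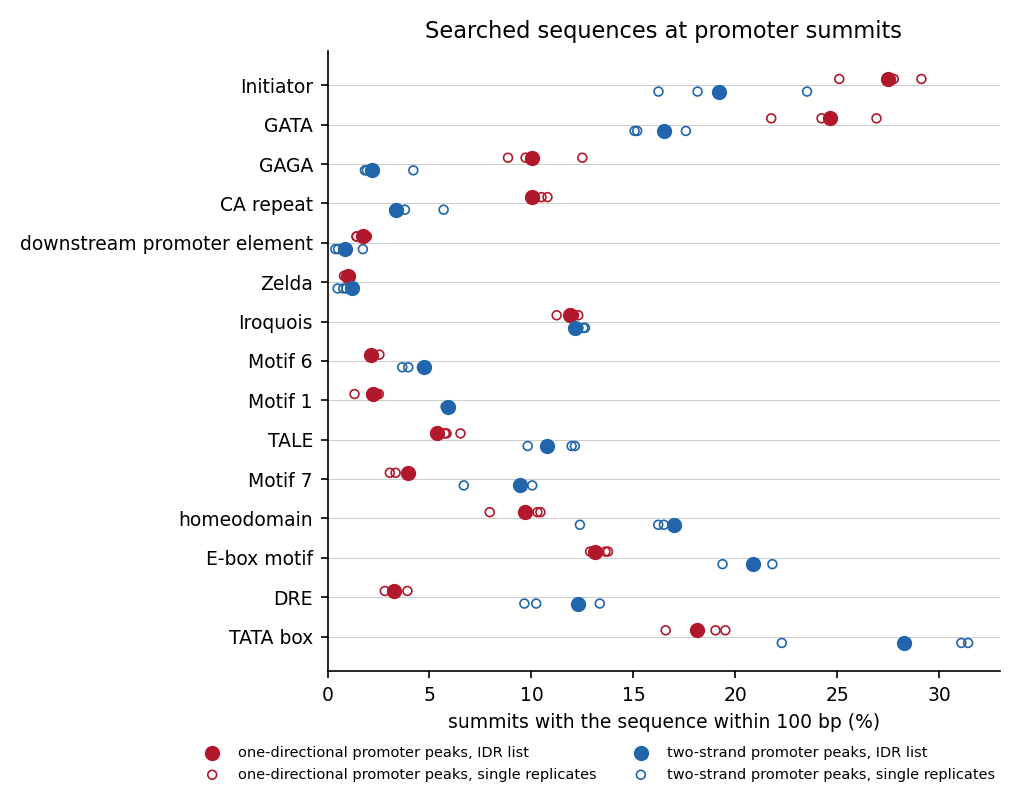
Percentage of summits with each searched sequence within 100 bp, for one-directional promoter peaks (red) and two-strand promoter peaks (blue); filled points are the IDR list and open points the single replicates. Sequences are ordered by the difference between the classes in the IDR list, from the Initiator, GATA and GAGA, higher at one-directional peaks, to the DRE and the TATA box, lower there; both palindromes are left out.

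Because one-directional promoters carry some of these sequences whether or not they hold a peak, promoters with a summit were also set against promoters without one, in windows of the same size placed 46 bp upstream of each one-directional TSS. These windows were chosen after the data were seen, and TSSs of 1 gene can share bases. GAGA was in 12.7% of promoters with a summit and 5.24% of those without, and in 6.53% of all one-directional promoters. GATA was in 18.7% with and 12.3% without (13.4% of all), and CA repeats in 6.79% with and 4.27% without (4.71% of all). The difference was 6.99 ± 0.80 percentage points for GAGA, 5.97 ± 1.40 for GATA and 2.95 ± 0.27 for CA repeats (SD, n = 3), with the same sign in 3 of 3 replicates. The Iroquois palindrome was in 9.19% with and 8.05% without (8.25% of all), a difference of 1.18 ± 0.05 percentage points in 3 of 3 replicates. The DRE was in 5.77% with and 4.40% without (4.64% of all), with a difference of 1.38 ± 0.87, and the E-box motif in 15.1% with and 11.5% without (12.1% of all), with a difference of 3.47 ± 0.69. ACGNNCGT was in 4.40% and 2.58% (2.89% of all), Motif 7 in 4.28% and 2.94% (3.17% of all), Motif 6 in 3.73% and 2.94% (3.07% of all) and GTANNTAC in 4.32% and 3.35% (3.51% of all), each higher with a summit in 3 of 3 replicates. Motif 1 was in 3.73% and 2.93% (3.07% of all), higher with a summit in 2 of 3.

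Other sequences were rarer where a summit was present. The TATA box was in 20.0% of promoters with a summit and 30.3% without (28.6% of all), a difference of -10 ± 0.82 percentage points, and TAATTA in 6.72% and 10.4% (9.80% of all), a difference of -3.88 ± 0.42. TGACAG was in 7.19% and 8.67% (8.42% of all) and the Zelda sequence in 0.825% and 1.36% (1.27% of all). All 4 were lower with a summit in 3 of 3 replicates. Core elements were then searched at their usual place. The Initiator from 7 bp before to 9 bp after the TSS was at 19.05% of TSSs with a summit and 13.2% without, and the downstream promoter element from 15 to 40 bp after the TSS at 1.89% and 0.597%. The TATA box from 40 to 19 bp before the TSS was at 4.71% and 7.85%. These differences were 5.49 ± 1.39, 1.13 ± 0.23 and -3.24 ± 0.43 percentage points, with 1 sign each in 3 of 3 replicates. In the wider windows the Initiator was in 36.8% with and 34.9% without (35.3% of all), and its difference of 1.59 ± 1.84 was within the spread; the downstream element was in 2.75% and 0.957% (1.27% of all). Median GC content was 45.3% in promoters with a summit and 41.3% without, and its part was not tested.

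Relaxed-only regions at one-directional promoters gave a second background. GATA was at 24.7% of members and 14.1% of relaxed-only summits, and the Iroquois palindrome at 11.9% and 9.05%, higher than the relaxed-only value in 3 of 3 replicates. For GAGA the shares were 10.03% and 8.49%, and for CA repeats 10.03% and 8.98%, a smaller gap than against promoters without a summit. These gaps come from unlike windows, centred on the summit here and placed 46 bp upstream of the TSS there. Over the replicates GAGA was 1.86 ± 1.90 percentage points above the relaxed-only value, which is within the spread. The DRE was at 3.24% of members and 3.62% of relaxed-only summits, and replicate 1 alone was above that value. Windows 1000 bp from the member summits held GATA in 11.8%, GAGA in 3.92% and the Iroquois palindrome in 8.20%. Compared with the 3413 peaks away from promoters, members had GATA less often, 24.7% against 30.4%, and the Iroquois palindrome less often, 11.9% against 14.6%, in 3 of 3 replicates. GATA also moved with signal: 29.1% of the strongest and 20.8% of the weakest group of members held it, a difference of 6.30, 15.2 and 6.09 percentage points in replicates 1, 2 and 3. For the Iroquois palindrome the difference was 1.65, 2.31 and 1.03.

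The sequences also lay at different places about the summit. GATA was most frequent close to it, in 7.52% of members in the 50-bp bin just upstream and 8.57% in the bin just downstream, and in 2.78% in the last bin downstream, at 450 to 500 bp. GAGA had its highest shares to either side instead, 4.56% at 100 to 150 bp upstream and 3.60% at 100 to 150 bp downstream, and 2.28% in the bin just downstream of the summit. Members with GATA had their summit farther upstream, at a median of -96 bp, and members with Motif 1 close to the start, at -3 bp. Over the replicates these medians were -96.5, -80 and -98.5 bp for GATA and -12, -6 and -13 bp for Motif 1. Members with the DRE were at -24 bp and those with the Iroquois palindrome at -56 bp.

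**Figure D4:**
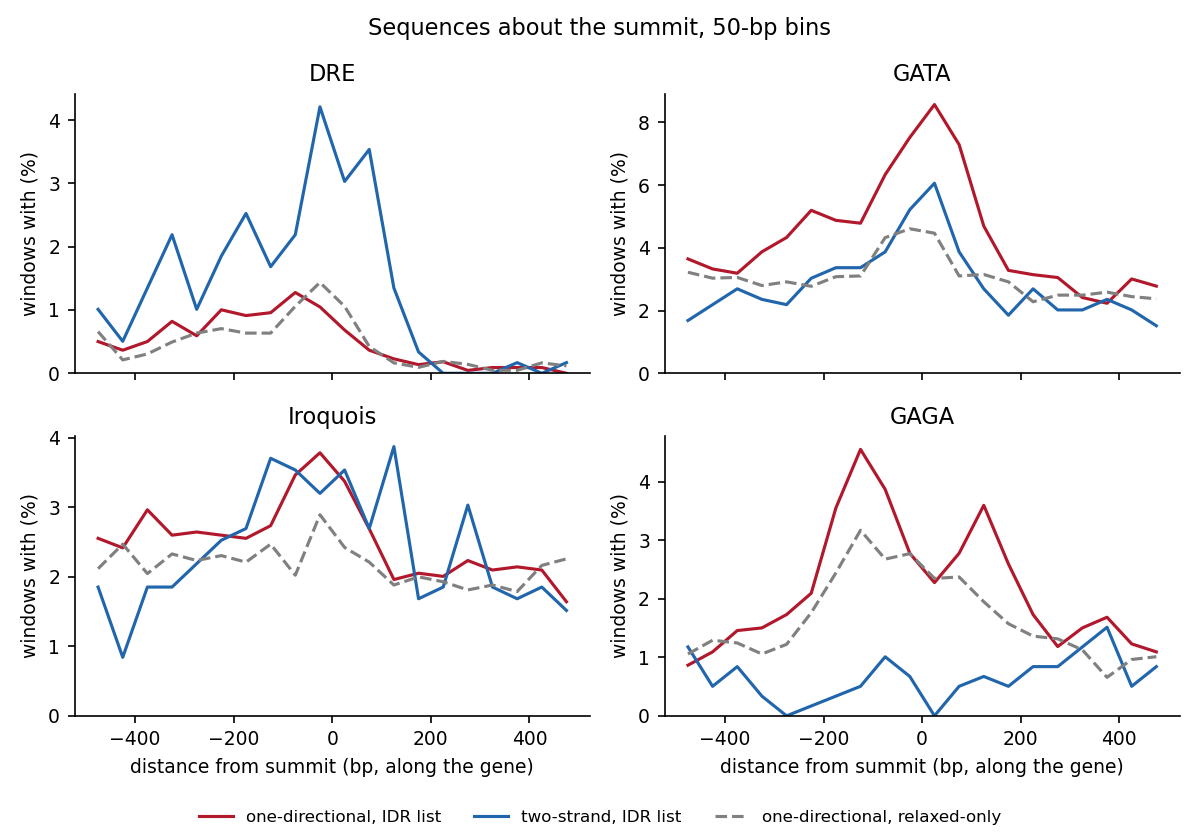
Percentage of windows with a sequence in each 50-bp bin about the summit, along the direction of the gene, for the DRE, GATA, the Iroquois palindrome and GAGA; each panel has its own vertical scale. Red is one-directional peaks, blue two-strand peaks and dashed grey relaxed-only regions at one-directional promoters; GATA rises to 8.57% at the red summit, while GAGA has 4.56% and 3.60% to its sides.

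Among gene lists, cytosolic ribosomal protein genes held the largest share with a member. Of 86 such genes, 40 (46.5%) had one, against 13.2% of all protein-coding genes, and 47.3% ± 5.50 against 13.0% ± 1.30 over the replicates (SD, n = 3). Another 28 had two-strand promoter peaks alone, against 1098 of all 13945 protein-coding genes. Of the 52 whose every TSS is one-directional, 39 (75%) had a member, against 1611 of 10067 genes (16%). With a TSS window of 1000 bp, which turns more promoters into two-strand ones, 25 genes of the list had a member. RpS4 ranked 58, 174 and 144 in replicates 1, 2 and 3, RpL31 ranked 109, 115 and 286, RpL23A 113, 573 and 132, and RpL24 127, 211 and 363. The 41 member peaks of this list sat at the start itself, at a median of -9 bp. The DRE was within 100 bp of 11 of them (26.8%, against 3.24% of all members) and Motif 1 of 4 (9.76%, against 2.23%). GATA was near 5 (12.2%, against 24.7%), the Iroquois palindrome near 1 (2.44%, against 11.9%) and GAGA near 0 (against 10.03%). Translation initiation and elongation factor genes had members at 14 of 52 (26.9%; 23.7% ± 4.84 over replicates), led by eIF6, eEF1gamma, eEF2 and eIF2A, and 5 of their 18 peaks (27.8%) held the DRE.

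Of the other housekeeping lists, 4 were below the level of all genes. Mitochondrial ribosomal protein genes had members at 2 of 73, mRpL41 and mRpL17, while 19 had two-strand promoter peaks alone, and 20 of the 73 had one-directional TSSs only. Members were at 2 of 49 proteasome genes (Rpn8 and Rpn11), 4 of 80 respiratory chain and ATP synthase genes (ATPsynC, UQCR-14, ND-39 and ND-13A) and 1 of 41 Mediator and TFIID genes (MED19). Two-strand promoter peaks alone were at 6, 10 and 7 genes of these lists. Over all protein-coding genes they were alone at 1098 of 13945. In every replicate the shares of these 4 lists with a member were below that of all genes. Of their genes with one-directional TSSs only, 5.0%, 4.0%, 7.32% and 0% had a member, in the order named. These shares rest on 20, 25, 41 and 15 genes, and the share of all such genes was 16%. Vacuolar ATPase genes had members at 6 of 33 (18.2%), led by Vha100-5, Vha16-1, Vha13 and Vha68-2, and heat shock and chaperone genes at 4 of 25 (16%), which were Hsp83, Hsp27, Hsp68 and Hsp110. Vacuolar ATPase genes had 18.2%, 21.2% and 15.2% in replicates 1, 2 and 3, above all genes in each (14.2%, 13.1% and 11.7%), and 6 of the 20 with one-directional TSSs only had a member (30%, against 16% of such genes). Heat shock and chaperone genes had 20%, 28% and 8% in the replicates, on both sides of the level of all genes.

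In lists of developmental regulators the share with a member was above that of all protein-coding genes. That share was 13.2%, and 14.2%, 13.1% and 11.7% in replicates 1, 2 and 3. Homeobox genes came near it in replicate 2, with 15.4%. Among genes with one-directional TSSs only, the pathway, Polycomb and trithorax, and homeobox lists had 42.9%, 37.5% and 23.7%, against 16%. Shares were not adjusted for the number of TSSs per gene. Genes of the EGFR, Dpp, Wingless, Hedgehog, Notch and JAK/STAT pathways had members at 25 of 71 (35.2%, and 35.7% ± 2.93 over replicates). The strongest were at shn, a Dpp pathway transcription factor gene (180 bp upstream; ranks 40, 56 and 715), ci (92 bp upstream; ranks 205, 64 and 112), Stat92E, the transcription factor of JAK/STAT signalling (366 bp downstream; ranks 1138, 592 and 115), and sgg, the GSK3 kinase gene of the Wingless pathway (254 bp upstream; ranks 184, 1760 and 332). Of their 34 peaks, 7 (20.6%) held GAGA, 5 (14.7%) GATA and 0 the Iroquois palindrome, against 10.03%, 24.7% and 11.9% of all members. Polycomb and trithorax group genes had members at 7 of 27 (25.9%), with 33.3%, 33.3% and 18.5% in replicates 1, 2 and 3. They included ph-p, ph-d and Su(z)2 of the Polycomb group, and Trl, which encodes the GAGA factor; the summit counted for Trl was nearer to a TSS of CG42507. Homeobox genes had members at 18 of 78 (23.1%, and 21.4% ± 5.18 over replicates) and two-strand promoter peaks at 0. Of the 78 genes, 76 have one-directional TSSs only, so few had an opposite-strand start within 500 bp. All 18 peaks lay upstream, at a median of -162 bp, against 64.1% upstream among all members. GAGA was at 7 of the 18 (38.9%) and GATA at 0, against 10.03% and 24.7% of all members. After mirr the strongest homeobox members were at Dll, a leg patterning gene (92 bp upstream; ranks 98, 905 and 1431), Lim3, a motor neuron gene (166 bp upstream; ranks 1561, 1795 and 1217), and zfh2 (ranks 2319, 1423 and 3397).

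Cytochrome P450 genes, which encode detoxifying and steroid-modifying enzymes, had members at 17 of 85 (20.0%), with 15.3%, 21.2% and 18.8% in replicates 1, 2 and 3 (18.4% ± 2.96). All genes had 14.2%, 13.1% and 11.7%, so the P450 share was near that level in replicate 1. Of the 79 P450 genes with one-directional TSSs only, 16 (20.3%) had a member, against 16% of all such genes. Cyp317a1, Cyp6u1, Cyp305a1 and Cyp9f3 had the strongest, and 4 of the 19 peaks (21.1%) held the Iroquois palindrome and 5 (26.3%) GATA, against 11.9% and 24.7% of all members. The last 3 lists had almost no genes with a member. Members were at 1 of 96 cuticle protein genes (Cpr65Av), 1 of 179 odorant, gustatory and ionotropic receptor genes (Gr32a) and 1 of 51 odorant-binding protein genes (Obp99b), although 92, 163 and 44 of them have one-directional TSSs only. The shares of these 3 lists were below that of all genes in every replicate.

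**Figure D5:**
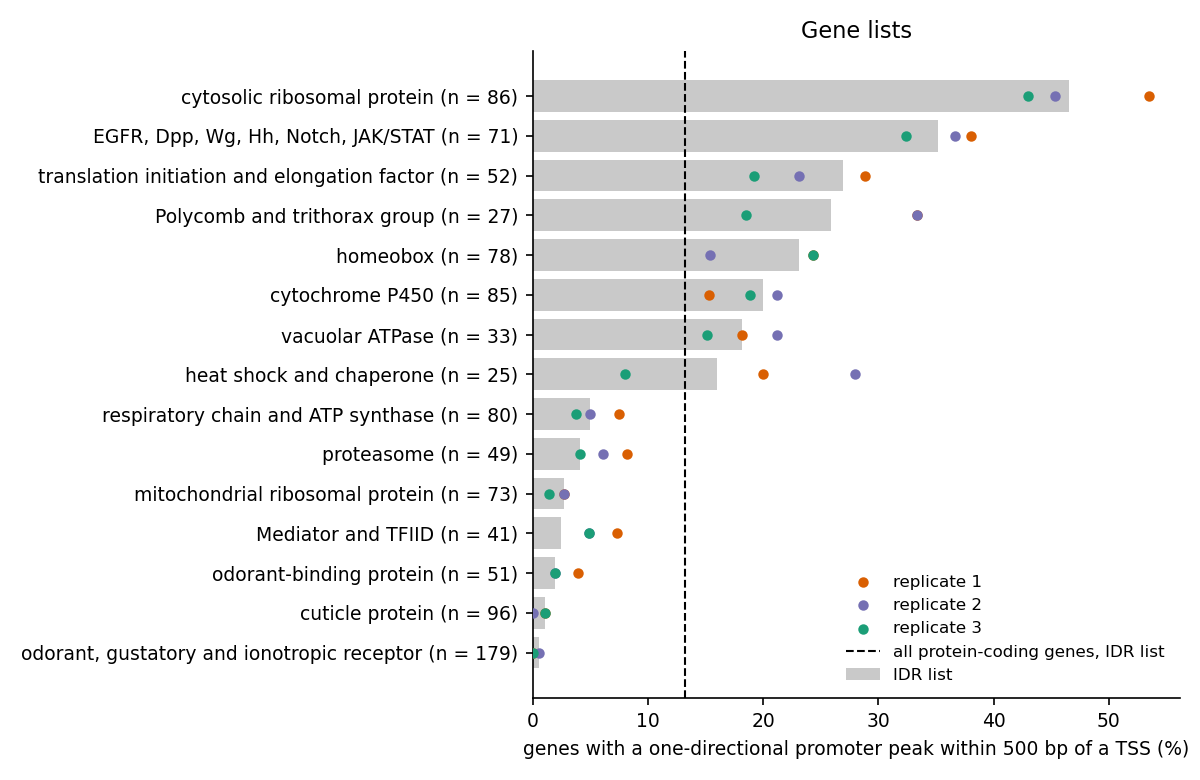
Percentage of the genes of each list with a one-directional promoter peak within 500 bp of a TSS. Grey bars are the IDR list, coloured points the single replicates and the dashed line all protein-coding genes in the IDR list (13.2%); cytosolic ribosomal protein genes reach 46.5%, and the receptor genes at the bottom are under 1%.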

How the data were processed

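Peak lists from ChIP-seq of 3 biological replicates were used. Per the labels and file descriptions, the authors used the dm6 assembly, called peaks per replicate and on pooled replicates, and applied IDR; the aligner, caller, threshold and depth are not given in the sources used here. Each deposited list gives a signal per peak, of unstated scale, used for ranks within a list, and a summit offset from the peak's start, deposited in another column. The 6201 IDR peaks are the pooled regions with the highest signal, so the IDR list alone does not show recurrence. Relaxed lists hold 30000 regions each. The labels call the samples biological replicates without saying whether embryos were collected separately, so the spread between them may be partly technical.

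TSSs were those of 13945 protein-coding genes of Ensembl release 115 (BDGP6.54) on the main arms. Sequences were searched within 100 bp of summits. Python 3.11.15, numpy 2.4.6 and pandas 2.3.3 were used, and the calculations were tested on simulated data. Gene names follow a rule: the genes nearest the 25 strongest members, up to 4 genes per list with the strongest members, the 5 largest gaps between replicate ranks, 3 peaks on each side of the distance limit, and, for printed sequences, the 2 strongest members off arm 2R per searched sequence shown and with none; ps, cnc and RpS3A were named after their values were seen. The members and the 15 gene lists were chosen with earlier results of these data known. Alternatives were the TSS window, the overlap rule, the sequence window, the stronger 3100 peaks, all gene types, and leaving out each replicate. Keeping 1 summit per interval and the windows at a fixed place from the TSS were added after the data were seen.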

Additional observations from a re-analysis of the deposited data

How the results depend on the processing

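Of 226 results recomputed with another setting, 209 kept their direction, of which 52 moved by over 1.5 times in size, 9 others moved and 8 turned round. The 226 include plain shares and gene-list counts, which cannot be negative and so could not turn round. Of the 52, 43 were sequence differences between one-directional and two-strand peaks, most of them with another search window or TSS window. With sequences searched over 250 bp the difference was 15.8 percentage points for GAGA, -13.6 for the E-box motif and -11.9 for the DRE; over 50 bp it was 3.60, -2.51 and -4.95. Against 1.24 and 0.71 as reported, ACGNNCGT differed by 0.029 percentage points and the downstream promoter element by 0.092 when TSSs were grouped at 1000 bp. GTANNTAC lay between 0.375 and 2.55 when replicates were left out, lowest without replicate 3 and highest without replicate 1. The difference in distance to the nearest TSS was 25.5 and 115 bp with TSS windows of 250 and 1000 bp, against 55.3 bp. The share of peaks at one-directional promoters was 40.9% with a TSS window of 1000 bp, and the share of members downstream of the TSS was 29.7% in the stronger part of the list. Leaving out each replicate in turn gave 33.2 to 37.3% for the mean share at one-directional promoters and 35.1 to 37.6% for the mean share downstream. The difference in median rank, one-directional minus two-strand, averaged -13.7 and had no stable sign: it was 205.2 with a TSS window of 250 bp, 29.5 in the stronger part of the list, and between -98.0 and 131.75 when replicates were left out, lowest without replicate 1 and positive without replicate 2. The difference in recurrence was 5.43 percentage points and lay between -2.97 without replicate 2 and 11.3 without replicate 1; it was 2.11 with 50% reciprocal overlap and 1.88 with the whole relaxed lists. The difference in the Iroquois palindrome was 0.785 percentage points with a TSS window of 1000 bp, 2.36 in the stronger part of the list and 0.582 with a search window of 50 bp, against -0.62 as reported, and that in the Zelda sequence was -0.137 with a search window of 50 bp, against 0.23 as reported. The cause of these changes was not tested. The other sequence differences kept their sign under every alternative run. Gene-list counts that moved by over 1.5 times were those of cytosolic and mitochondrial ribosomal protein, proteasome, and Mediator and TFIID genes with the window of 1000 bp, and of cuticle protein and receptor genes. Samples could not be paired between groups, because they form 1 group and their numbers pair nothing between groups. Classes of peaks were compared within each replicate, so those comparisons were paired by replicate. With 3 replicates, unknown depth and no untagged embryos, neither counting error nor background from the tag could be measured.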
